A study of Mus musculus with 9 samples.

Results

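The 10 genes described here form the oxygen-sensing switch and the regulated steps of glycolysis, together with Pkm, the pyruvate kinase gene on which the study centred. They were taken by gene symbol from a table of 23413 genes, and all 10 were found: Hif1a, Egln1 and Egln3 of the oxygen-sensing pathway, Hk1, Hk2, Pfkl, Pfkfb3 and Pkm at the controlled steps of glycolysis, and Ldha and Ldhb at the lactate step. All 10 had enough counts to be among the 11393 genes tested.

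Expression was measured by RNA-seq in macrophages sorted from the livers of male C57BL/6 mice, which entered the diets at 5 weeks of age. ND mice (n = 2) were kept on normal chow, and the other mice received a high-fat diet (HFD) with injections of vehicle, a polyethylene glycol (n = 3, called Veh), or of diphenyleneiodonium (DPI, n = 4). DPI, the compound the study used as an agonist of the receptor GPR3, was given at 2 mg/kg every 5 days from week 3, and livers were taken at week 8. A treatment text attached to the same samples describes 500 nM DPI for 24 h on purified cells, which goes against the dosing of mice given elsewhere in the labels and in the methods; the grouping by diet and treatment is the same in both. The cells were gated as F4/80+CD11b+, with Gr1low added in the methods, a gate that monocyte-derived macrophages can also enter. Each library is labelled as 1 mouse.

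HIF-1α, the protein of Hif1a, is a transcription factor that is made continuously and destroyed in the presence of oxygen. The prolyl hydroxylases encoded by Egln1 and Egln3 (PHD2 and PHD3) use oxygen to mark it for destruction by the VHL ubiquitin ligase. Stabilised HIF-1α pairs with HIF-1β and binds the core sequences ACGTG or GCGTG, and many genes of glycolysis are among its targets. Since this control acts on the protein, Hif1a mRNA is no measure of HIF-1 activity. In macrophages a shift to glycolysis accompanies inflammatory activation, and nuclear PKM2, 1 splice form of Pkm, is known to act with HIF-1α.

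Library totals ran from 3534325 to 15585775 counts (median 4918629), of which 27.0% to 44.5% fell on the ribosomal RNA precursor Rn45s. A count of 3, taken as the least that can be told from none, corresponded to 0.184 to 1.02 CPM (counts normalised for library size with edgeR's TMM method), and this floor covers counting error only. The macrophage label was borne out by 10 of 10 general macrophage markers, with a summed level of 15424 to 44642 CPM, but the resident Kupffer cell (KC) gene Clec4f had 0 counts in 3 libraries, and of 9 KC markers Marco and Folr2 were at 0 in ND and Vsig4 and Marco at 0 in Veh. Neutrophil markers (9 genes) summed to between 825 and 5572 CPM, and endothelial markers (8 genes) to 217 to 329 CPM in ND, 15.4 to 27.5 CPM in Veh and 10.8 to 234 CPM in DPI. In such bulk libraries, fewer cells of a type and less RNA per cell cannot be told apart.

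Pfkfb3 and Ldhb were higher in the sorted liver macrophages of HFD-fed mice than in those of ND mice, although 2 of 4 DPI libraries had Pfkfb3 near the ND level, and no member passed the threshold between DPI and vehicle. Pfkfb3, which makes the main activator of phosphofructokinase, was 4.04-fold higher with vehicle (95% interval 1.70 to 9.60) and 2.51-fold higher with DPI. Ldhb, the lactate dehydrogenase subunit that favours the use of lactate, was 3.69-fold higher with vehicle and 4.22-fold higher with DPI. These 2 of 10 members passed the threshold of the study's methods, an unadjusted p under 0.05 in edgeR and at least a 2-fold difference, for Veh against ND, where 7.03% of all tested genes passed in the upward direction. None of the members passed downward, against 4.63% of all genes. None had an adjusted p under 0.05 (Benjamini-Hochberg over the genes tested), as 0.0614% of all genes did, and the smallest adjusted p of a member was 0.213. The same 2 members passed upward for DPI against ND, beside 6.24% of all genes, and none passed downward, beside 3.05%. None had an adjusted p under 0.05 there either, beside 0.00878% of all genes. These comparisons share the ND libraries and are not independent.

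**Figure D1:**
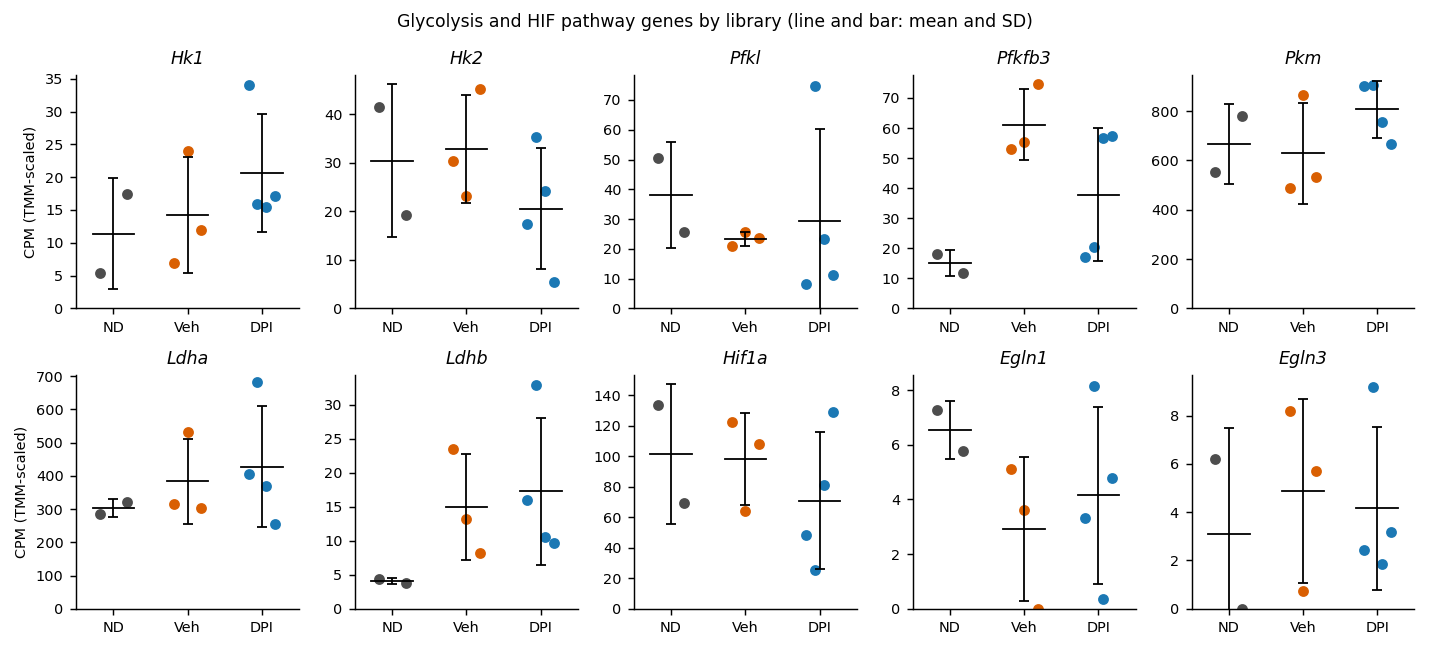
Levels of the 10 genes in each library, in CPM after TMM scaling, for ND (n = 2), HFD with vehicle (Veh, n = 3) and HFD with DPI (n = 4). Points are libraries, the wide line is the group mean and the bar 1 SD, shortened at 0. Pfkfb3 and Ldhb lie lower in both ND libraries than in every Veh library, and the DPI libraries of Pfkfb3 separate into a low and a high pair.

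For DPI against vehicle, 0 of 10 members passed the same threshold in either direction, beside 2.84% of all tested genes. No gene at all had an adjusted p under 0.05 in edgeR's quasi-likelihood test (0% of 11393), 470 genes had an unadjusted p under 0.05, and DESeq2 and edgeR's likelihood ratio test called 2 and 1 genes. In no member did the DPI libraries lie wholly above or wholly below the Veh libraries, which 5.85% of all genes did. The median log2 fold change of the members was 0.18, beside 0.04 for all genes, with 6 members above 0 and 4 below. For Veh against ND the medians were 0.22 and 0.03, and for DPI against ND 0.34 and 0.04, again with 6 members above 0 and 4 below in each.

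**Figure D2:**
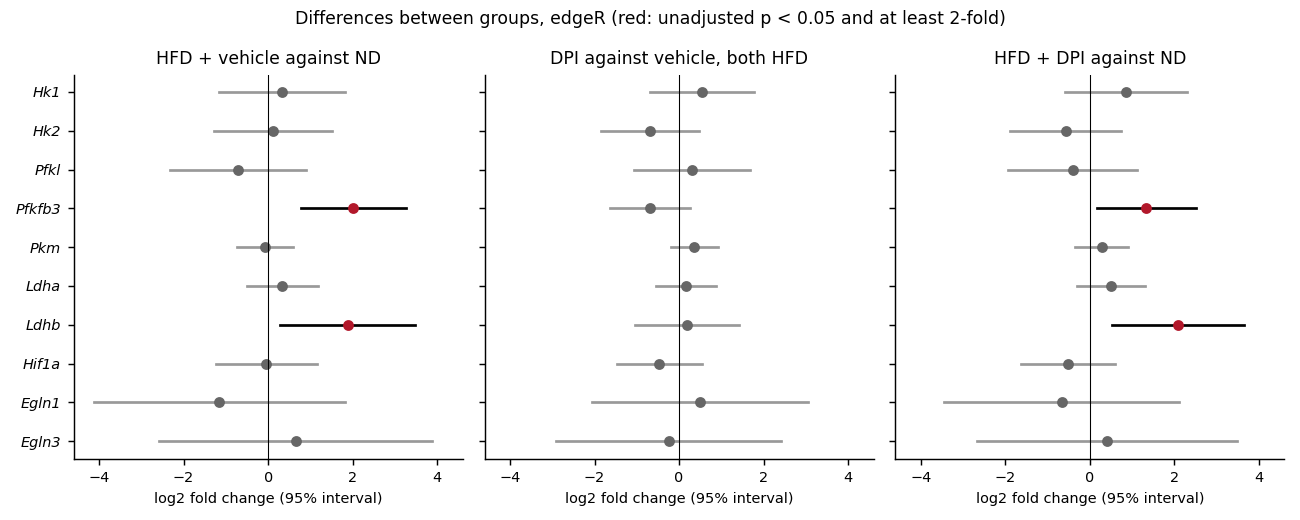
Log2 fold changes of the 10 genes in the 3 comparisons, with 95% intervals from edgeR's quasi-likelihood fit of 9 libraries. Red marks an unadjusted p under 0.05 with at least a 2-fold difference, which only Pfkfb3 and Ldhb reached, in both comparisons with ND.

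Compared per kilobase of merged exons, Pkm was the highest with a mean of 143 CPM per kb over the 9 libraries (97.6 to 181), followed by Ldha with 116 (77.5 to 206), and their ranges overlapped. A gap separated these from Hif1a with 14.7 (4.26 to 22.7), Ldhb with 8.65 (2.38 to 21.0), Pfkfb3 with 5.36 (1.58 to 9.86), Hk2 with 4.50 (0.906 to 7.56) and Pfkl with 4.38 (1.21 to 11.2), whose ranges all overlapped their neighbours'. Hk1 with 1.93, Egln3 with 1.56 and Egln1 with 1.19 CPM per kb were lowest, and each Egln gene had 0 counts in 1 library. The 2 most abundant members thus act at the end of the pathway, and the members Hk1, Hk2 and Pfkl, at earlier steps, were far lower per length. Other hexokinase and phosphofructokinase genes, among them Pfkp, were not ranked.

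The HIF-1 core ACGTG was looked for on both strands of RefSeq promoter windows on GRCm38.p6, from 250 bases before to 50 bases after each start. It was present for 8 of 10 members, against 21.8% of 27025 genes. A gene was counted when any of its starts had a match, and the genes were not matched in GC content. The members were chosen as HIF pathway and glycolysis genes, so these shares and those of the other cores carry no test. Ldhb and Pfkl, 1 that passed the threshold and 1 that did not, had no match in this window. The other core, GCGTG, was found for 6 of 10 members and 35.2% of all genes. The palindrome CACGTG, which holds ACGTG on both strands and is also the E-box bound by MYC, was found for 3 of 10 members and 8.09% of all genes. The windows below show matches upstream of the start, at most 2 for a gene, for Pfkfb3, which passed the threshold, for Pkm and Ldha, the most abundant members, and for Hif1a; each is written along the gene's own strand with the match in capitals. A match describes letters only, and binding was not measured here.
Pfkfb3, chr2:11553973-11554001, minus strand: ctccgcgccgtgACGTGccaagctgtgac
Pfkfb3, chr2:11502126-11502155, minus strand: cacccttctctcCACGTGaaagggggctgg
Ldha, chr7:46845647-46845676, plus strand: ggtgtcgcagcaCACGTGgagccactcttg
Ldha, chr7:46845744-46845773, plus strand: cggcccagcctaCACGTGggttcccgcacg
Pkm, chr9:59657140-59657168, plus strand: ctccgatccggtCACGTccgcgccgcagc
Hif1a, chr12:73907720-73907749, plus strand: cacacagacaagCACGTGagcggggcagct

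The 2 Pfkfb3 matches lie 60 and 53 bases before 2 different starts of that gene. The Pkm match shown lies 75 bases and the Hif1a match 135 bases before the start, and the Ldha matches 145 and 48 bases before it. Other upstream matches, not shown, lie 34 bases before the Ldha start and 70 bases before the Hif1a start.

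Among the oxygen-sensing genes, no difference between groups passed the threshold in the fit of 3 groups. Hif1a (chromosome 12 from 73901375 to 73947530 on GRCm38) had 134 and 69.1 CPM in ND, 122, 64.2 and 108 CPM in Veh and 48.7, 25.1, 80.9 and 129 CPM in DPI. Every group held both high and low libraries, and the groups overlapped. The log2 fold change was -0.05 for Veh against ND (standard error 0.55) and -0.46 for DPI against Veh (standard error 0.46, 95% interval -1.46 to 0.53). The interval for DPI reaches past a 2-fold fall.

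Egln1 (chromosome 8 from 124908587 to 124949324), which encodes PHD2, the main oxygen sensor for HIF-1α, had few counts. It had 40 and 31 counts in ND, 23, 20 and 0 in Veh and 54, 24, 2 and 47 in DPI, at or under the floor of 3 in 2 of the 9 libraries. Both ND libraries, with 7.29 and 5.79 CPM, lay above the Veh libraries, which had at most 5.11 CPM. Their difference, a log2 fold change of -1.16 with a 95% interval from -4.12 to 1.81, was not told apart from 0, and it was -0.53 without Veh 3, the library at 0 counts.

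Egln3 (chromosome 12 from 54178981 to 54203860), encoding PHD3, is itself a HIF-1 target. It had 34 and 0 counts in ND, 37, 4 and 23 in Veh and 40, 27, 10 and 31 in DPI. Within ND it ranged from 6.19 CPM to a count of 0 that allows up to 0.560 CPM, and the groups overlapped. The log2 ratio of Egln3 to Egln1 within a library was 4.45 higher in Veh than in ND (exact permutation test, p = 0.4), a value that ran from 1.58 to 7.32 when 1 library was left out, and the difference of DPI from Veh was -1.04 (p = 0.714, exact, or 1.06 without Veh 3), in a pair whose genes both reach 0 counts.

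The hexokinases catalyse the entry of glucose into the pathway. Hk2 (chromosome 6 from 82725025 to 82774454), the inducible and HIF-responsive isoform, had 41.5 and 19.2 CPM in ND, 30.4, 23.2 and 45.1 CPM in Veh and 17.5, 35.3, 24.1 and 5.41 CPM in DPI. Hk1 (chromosome 10 from 62268855 to 62379908), the constitutive isoform, had 5.46 and 17.4 CPM in ND, 6.88, 23.9 and 11.9 CPM in Veh and 34.1, 16.0, 15.4 and 17.1 CPM in DPI. The groups overlapped for both genes. For DPI against Veh the log2 fold change was -0.69 for Hk2 (standard error 0.54, 95% interval -1.86 to 0.47) and 0.54 for Hk1 (standard error 0.57, 95% interval -0.70 to 1.78). For DPI against ND, Hk1 was at 0.86 (standard error 0.67) and passed the threshold without ND 2, at 1.95.

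Hk2 made up 88.4% and 52.6% of the hexokinase 1 and 2 counts in ND, 81.5%, 49.2% and 79.1% in Veh and 33.9%, 68.9%, 61.0% and 24.0% in DPI. The 2 lowest shares were those of DPI 1 (95% Clopper-Pearson interval 30.7% to 37.2%, counting error only) and DPI 4 (18.5% to 30.2%), and the other DPI libraries lay among the Veh libraries. The difference of DPI from Veh in the log2 ratio of Hk2 to Hk1 was -1.54, within the spread between libraries (two-sided exact permutation test, p = 0.171, adjusted over 9 ratio tests 0.45), and ran from -2.23 to -1.06 when 1 library was left out.

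**Figure D3:**
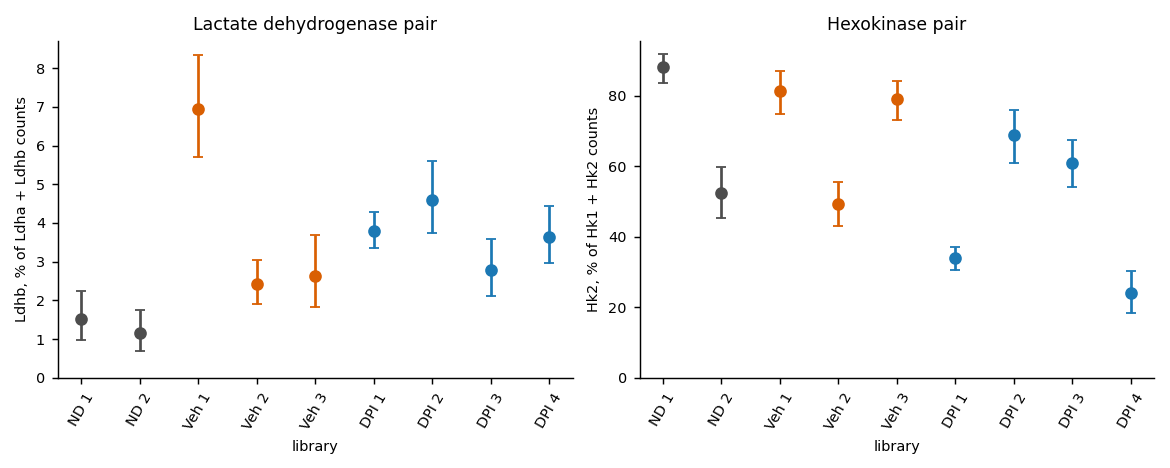
Share of Ldhb among Ldha and Ldhb counts (left) and of Hk2 among Hk1 and Hk2 counts (right), in percent, for each library. Bars are 95% Clopper-Pearson intervals, which cover counting error only. Both ND libraries have a lower Ldhb share than the other 7 libraries, and Hk2 shares are spread widely in every group.

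Phosphofructokinase is the committed step of glycolysis. Pfkl (chromosome 10 from 77986947 to 78010083), the liver-type subunit, had 50.6 and 25.6 CPM in ND, 20.9, 25.6 and 23.5 CPM in Veh and 8.09, 74.7, 23.2 and 11.1 CPM in DPI. The DPI libraries took both the lowest and the highest value, and ND 2 and Veh 2 were level to 3 digits. The log2 fold change was -0.71 for Veh against ND (standard error 0.75) and 0.30 for DPI against Veh (standard error 0.64), neither of which passed. The first shrank to -0.12 without ND 1, and the second turned to -0.74 without DPI 2.

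Pfkfb3 (chromosome 2 from 11471433 to 11554077) encodes the kinase that makes fructose 2,6-bisphosphate, which opens the phosphofructokinase step. It had 18.2 and 11.95 CPM in ND, from 100 and 64 counts. In Veh it had 53.1, 55.5 and 74.6 CPM from 239, 306 and 301 counts so that every Veh library lay above both ND libraries. In DPI it had 17.0, 20.4, 56.8 and 57.2 CPM, 2 libraries at the level of ND and 2 at that of Veh.

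Veh differed from ND by 2.01 on the log2 scale (standard error 0.58, 95% interval 0.77 to 3.26, adjusted p = 0.213 in edgeR's quasi-likelihood test). It passed the threshold in 10 of 10 other settings and without any 1 library in turn. The call after adjustment depended on the tool, with an adjusted p of 0.0277 in DESeq2 and 0.0427 in edgeR's likelihood ratio test. The difference of DPI from ND, 1.33 (standard error 0.54, adjusted p = 0.427), was past the threshold in 7 of 10 settings and in 3 of 6 fits without 1 library, failing without ND 2, DPI 3 or DPI 4. Between DPI and Veh the log2 fold change was -0.69 (standard error 0.44, 95% interval -1.64 to 0.27).

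Some marker sums of other cells split the libraries as Pfkfb3 did, and others did not. Summed endothelial markers were 217 and 329 CPM in ND and 234 and 114 CPM in DPI 1 and DPI 2, the 4 libraries with low Pfkfb3, and between 10.8 and 44.0 CPM in the 5 others. Summed neutrophil markers were 943 and 825 CPM in DPI 1 and DPI 2 and 3459 and 5572 CPM in DPI 3 and DPI 4. ND 2, however, had 3307 CPM of neutrophil markers, as much as Veh 2 with 3300 CPM, and the lowest Pfkfb3 of all libraries. Summed KC markers were 224 and 231 CPM in ND, 478, 944 and 472 CPM in Veh and 260, 425, 536 and 499 CPM in DPI. Veh 2, with the highest sum, and Veh 3 had 6 of 9 KC genes at 0 counts, among them Clec4f, Vsig4 and Timd4. Clec4f was highest in ND 2, at 45.6 CPM, where 2 KC genes were at 0. The KC sum and Clec4f thus ran apart. Monocyte markers (7 genes) summed to 4485 to 4574 CPM in ND, 5347 to 6413 CPM in Veh and 4211 to 6505 CPM in DPI, so that ND lay below Veh as it did for Pfkfb3. The F4/80+CD11b+Gr1low gate of the methods is set to leave out Gr1-high neutrophils and F4/80-negative endothelial cells. Marker transcripts of both were still counted, such as Cxcr2 at 247 CPM in DPI 4 and Clec4g at 71.0 and 93.8 CPM in ND. The part of any of these cell types in the Pfkfb3 values was not tested. Hif1a too was lower in DPI 1 and DPI 2 than in DPI 3 and DPI 4.

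**Figure D4:**
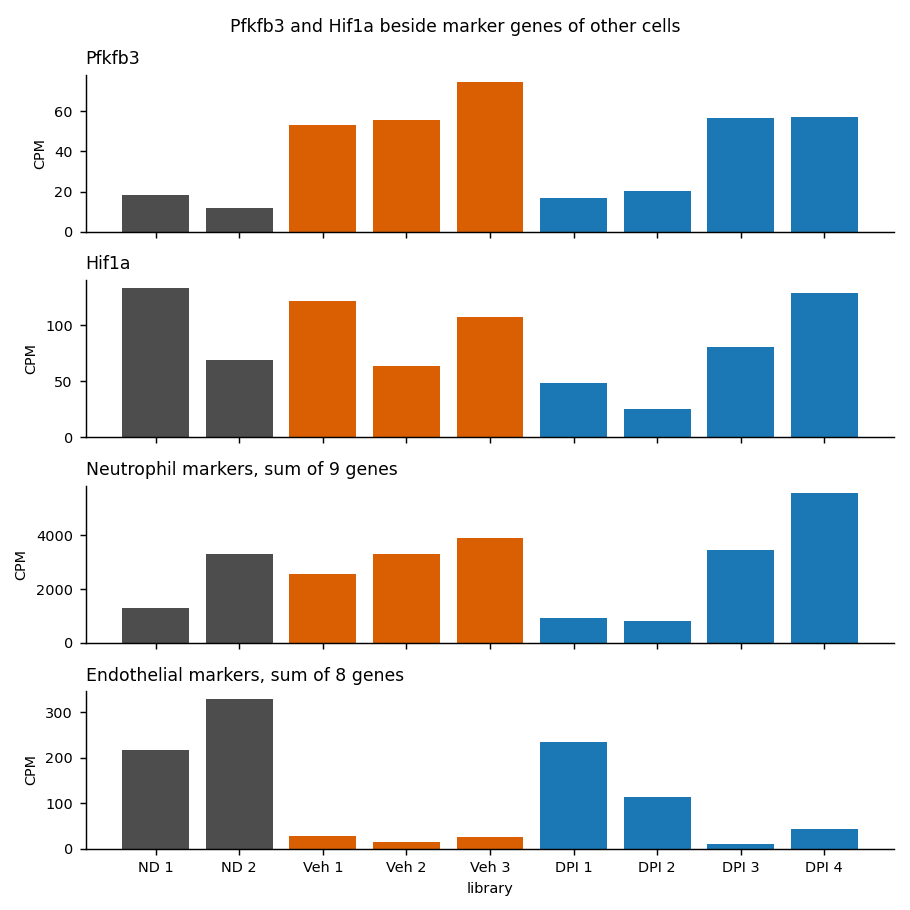
Levels of Pfkfb3 and Hif1a in each library above the summed levels of 9 neutrophil and 8 endothelial marker genes, all in CPM. Bars are single libraries. The 4 libraries with Pfkfb3 of at most 20.4 CPM are those with endothelial sums above 100 CPM, whereas the neutrophil sum of ND 2 (3307 CPM) lies among those of Veh.

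Pkm (chromosome 9 from 59656368 to 59679375) encodes the pyruvate kinases PKM1 and PKM2, which arise by alternative splicing, and gene counts do not separate these. It had 552 and 781 CPM in ND, 488, 864 and 532 CPM in Veh and 900.3, 905, 754 and 668 CPM in DPI. Means were 667 ± 162 CPM in ND (SD, n = 2), 628 ± 205 CPM in Veh (SD, n = 3) and 807 ± 116 CPM in DPI (SD, n = 4). The 2 highest libraries were DPI libraries, but Veh 2 lay above the other two. The log2 fold change was 0.36 for DPI against Veh (standard error 0.26, 95% interval -0.20 to 0.92, adjusted p = 0.999 in edgeR) and the upper limit corresponds to a 1.89-fold rise. Without Veh 2 it was 0.66, with an unadjusted p under 0.05 but less than a 2-fold difference. Between Veh and ND it was -0.09 (95% interval -0.75 to 0.57), the narrowest interval of the members. The annotation holds 8 processed copies of Pkm (87.0% to 94.9% identical), none of them a row of the table, and reads shared with them are uncertain.

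Pkm was low in the same 3 libraries, ND 1, Veh 1 and Veh 3, in which several other genes were low. Over the 9 libraries, log2 CPM of Hk1 followed Pkm with Pearson's r = 0.84 (Spearman's rho 0.75) and Ldha with r = 0.72 (rho 0.80), whereas Hif1a ran opposite with r = -0.83 (rho -0.87). Without the 2 libraries farthest from the median of Pkm, Veh 1 and Veh 3, r was 0.85 for Hk1, 0.78 for Ldha and -0.86 for Hif1a. These describe 9 libraries that share their scaling and span 3 groups, and carry no test. Pfkfb3 (r = -0.40) and Hk2 (r = -0.28) were at -0.05 and 0.03 without Veh 1 and Veh 3, and Ldhb went from 0.24 to 0.70.

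Of 11383 other genes, the 5 with the pattern most like that of Pkm were B230378P21Rik (r = 0.97), Sars (0.97), Acp6 (0.96), Apol7e (0.95) and Rac2 (0.94). Sars, the cytosolic seryl-tRNA synthetase, had 25.9, 27.1 and 25.0 CPM in ND 1, Veh 1 and Veh 3 and 42.0 to 70.8 CPM in the other libraries. Rac2, a GTPase of the phagocyte oxidase, had 276, 320 and 328 CPM in those 3 libraries and 477 to 673 CPM elsewhere. B230378P21Rik, at 0 to 8.49 CPM, and Apol7e were at or under the floor in those 3 libraries. Among the 11 other glycolysis enzymes tested, r ran from -0.06 for Pfkm, ranked 6739, to 0.70 for Eno1, ranked 451. Gapdh (0.69), Pgam1 (0.67) and Aldoa (0.63) stood near Eno1, whereas Pgk1 was at 0.22 and Pfkp at 0.02.

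**Figure D5:**
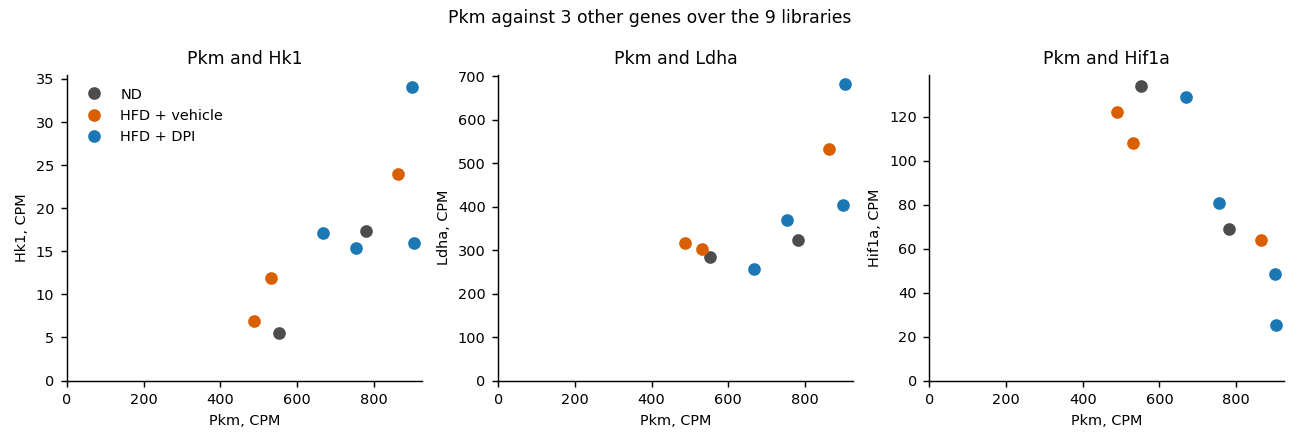
Levels of Hk1, Ldha and Hif1a against Pkm, in CPM, 1 point for each of 9 libraries coloured by group. Hk1 and Ldha are higher and Hif1a lower where Pkm is higher, and the groups overlap along the Pkm axis.

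Lactate dehydrogenase turns pyruvate and lactate into each other. Ldha (chromosome 7 from 46841475 to 46855627), the subunit that favours lactate production and a HIF-1 target, had 284 and 323 CPM in ND, 316, 532 and 303 CPM in Veh and 404, 682, 369 and 257 CPM in DPI. The groups overlapped, with log2 fold changes of 0.34 for Veh against ND (standard error 0.39) and 0.16 for DPI against Veh (standard error 0.33). Its 19 processed copies in the annotation are 85.5% to 95.4% identical, and reads shared with them are uncertain.

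Ldhb (chromosome 6 from 142490249 to 142507957) had 4.37 and 3.74 CPM in ND, from 24 and 20 counts. It had 23.5, 13.2 and 8.18 CPM in Veh and 15.9, 32.9, 10.6 and 9.69 CPM in DPI, from 33 to 260 counts. All 7 libraries of HFD-fed mice lay above both ND libraries. Pfkfb3 and Ldhb were the 2 of 10 members whose Veh libraries all lay above ND, beside 15% of all genes, and Ldhb was the 1 member whose DPI libraries all did, beside 11.7%. No member lay wholly below ND in DPI, beside 8.5% of all genes. Pfkl and Egln1 were the 2 members wholly below ND in Veh, beside 12.5%.

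The log2 fold change of Ldhb was 1.88 for Veh against ND (standard error 0.74, 95% interval 0.29 to 3.47, adjusted p = 0.329 in edgeR's quasi-likelihood test). It did not pass without Veh 1, the highest Veh library (log2 fold change 1.45, standard error 0.78), nor without ND 2 (1.80, standard error 0.92). For DPI against ND it was 2.08 (standard error 0.72, 95% interval 0.52 to 3.63, adjusted p = 0.367), past the threshold in all 10 other settings and all 6 fits without 1 library. Between DPI and Veh it was 0.19 (95% interval -1.03 to 1.42). A single copy 98.0% identical to Ldhb is annotated and is no row of the table, so its reads may be split.

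The share of Ldhb in the pair's counts does not depend on scaling between libraries. It was 1.52% and 1.14% in ND, 6.94%, 2.43% and 2.63% in Veh and 3.79%, 4.61%, 2.79% and 3.64% in DPI. The upper 95% Clopper-Pearson limit of ND 1, 2.25%, reached into the intervals of Veh 2 (1.91% to 3.04%) and Veh 3 (1.82% to 3.68%), while the intervals of the DPI libraries other than DPI 3 (lower limit 2.12%) lay wholly above it. The difference of Veh from ND in the log2 ratio of Ldha to Ldhb was -1.45 (exact permutation test, p = 0.1, the smallest that 3 against 2 libraries can give). That of DPI from ND was -1.48 (p = 0.0667, exact, again the smallest possible), and after adjustment over the 9 ratio tests both were at 0.45. That of DPI from Veh was -0.03 (p = 0.886, exact). Hepatocyte markers summed to 125 to 290 CPM in ND, 13.4 to 62.4 CPM in Veh and 29.7 to 79.5 CPM in DPI. Dendritic cell markers (8 genes) moved with Ldhb between ND and HFD, at 55.7 to 108 CPM in ND, 196 to 310 CPM in Veh and 123 to 409 CPM in DPI, with every HFD library above both ND libraries. B cell markers (6 genes) summed to 14.9 to 72.1 CPM in ND, 93.9 to 188 CPM in Veh and 15.62 to 423 CPM in DPI. T and NK cell markers (11 genes) summed to 138 to 321 CPM in ND, 213 to 384 CPM in Veh and 242 to 517 CPM in DPI. The part of these cells in Ldhb was not tested.

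The rest of the pathway was followed in 4 lists. Of 14 other glycolysis enzymes, 11 were tested and none passed the threshold in any comparison. Of all genes, 11.7% passed in either direction for Veh against ND, 2.84% for DPI against Veh and 9.29% for DPI against ND. Above 0 were 8 of 11 for Veh against ND and 9 of 11 for each of the other comparisons. The median log2 fold change of the 11 was 0.12 for Veh against ND, beside 0.03 for all genes. It was 0.12 for DPI against Veh and 0.29 for DPI against ND, beside 0.04 for all genes in each. Gapdh, at 1886 CPM in ND, 2627 CPM in Veh and 2671 CPM in DPI, had log2 fold changes of 0.48 (standard error 0.34) for Veh and 0.50 (standard error 0.33) for DPI against ND. For Pfkp, the platelet-type phosphofructokinase, all Veh libraries (54.4 to 85.5 CPM) lay above ND (30.2 and 52.7 CPM), as for 15% of all genes. The difference of 0.73 (log2, standard error 0.39) missed the threshold. For DPI against Veh the smallest p of the list were those of Gpi1, at 0.34 (standard error 0.25), and Eno1, at 0.44 (standard error 0.37). Aldoc, Eno2 and Pklr, the pyruvate kinase gene of hepatocytes and red cells, had at most 22 counts and were not tested.

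Of 14 other genes that control glycolysis, 11 were tested, and 3 were higher in Veh than in ND, beside 7.03% of all genes. Mlxip, a glucose-sensing transcription factor of the Mondo family, had 74.9 and 46.1 CPM in ND and 186, 115 and 219 CPM in Veh, a difference of 1.51 on the log2 scale (standard error 0.45, adjusted p = 0.229 in edgeR). Myc, an activator of glycolytic genes, had 8.56 and 17.7 CPM in ND and 25.7, 60.2 and 26.8 CPM in Veh, a difference of 1.52 on the log2 scale (standard error 0.67, adjusted p = 0.364), which did not pass without Veh 2, at 0.997, or without ND 1. In DPI, Myc had 19.6, 13.2, 52.7 and 49.7 CPM, low in DPI 1 and DPI 2 as was Pfkfb3. Pdp1, a phosphatase that activates pyruvate dehydrogenase, had 0 counts in both ND libraries and 0, 14 and 17 in Veh, at least 4.07-fold higher, taking the floor of 3 counts in each ND library. The bound was 2.29-fold without Veh 3, and the call was lost without either ND library. For DPI, with 5 to 82 counts, Pdp1 was at least 10.1-fold higher, or 4.33-fold without DPI 3, which held the 82 counts. For DPI against Veh, 0 of the 11 passed, beside 2.84% of all genes. Mlxip was at -0.75 (standard error 0.36) and Txnip, an inhibitor of glucose uptake, at 0.42 (standard error 0.26). The Txnip libraries of DPI (117 to 170 CPM) all lay above those of Veh (93.2 to 108 CPM), as did those of 3.38% of all genes.

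Of 14 other genes of the HIF machinery, 13 were tested, and 2, Cul2 and Hif1an, were higher in both HFD groups than in ND, beside 7.03% of all genes for Veh and 6.24% for DPI. Cul2, the scaffold of the VHL ubiquitin ligase, had 10 and 11 counts in ND, 28 to 57 in Veh and 34 to 124 in DPI, with log2 fold changes of 2.23 (standard error 0.74, adjusted p = 0.268 in edgeR) and 2.49 (standard error 0.73, adjusted p = 0.267). Hif1an, the asparaginyl hydroxylase that blocks the HIF-1α activation domain, had 2 and 0 counts in ND, 21, 15 and 7 in Veh and 11 to 124 in DPI, and against the floor was at least 5.49-fold and 14.3-fold higher. Both genes had few counts, and Hif1an in Veh did not pass without ND 2. Cited2, which competes with HIF-1α for the coactivator p300, was the 1 of 13 lower in DPI than in Veh, beside 1.34% of all genes, at 57.3, 22.5 and 73.3 CPM in Veh and 15.1, 24.8, 27.5 and 22.0 CPM in DPI (log2 fold change -1.19, standard error 0.41, adjusted p = 0.999 in edgeR). Veh 2 lay within the DPI range, and without Veh 3 the difference, -0.84, did not pass.

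Of 18 HIF targets outside glycolysis, 14 were tested. For Veh against ND none passed, beside 11.7% of all genes in either direction. Mxi1 was at -1.40 (standard error 0.73), and Car9 had at most 1 count in ND and 13 in Veh. For DPI against Veh, 1 of 14, Ankrd37, was lower, beside 1.34% of all genes, at 20.9, 8.34 and 10.7 CPM in Veh and 1.47, 3.06, 10.02 and 1.43 CPM in DPI (log2 fold change -1.75, standard error 0.76, adjusted p = 0.999 in edgeR). It did not pass in 5 of 7 fits without 1 library, those without DPI 1, DPI 2, DPI 4, Veh 1 or Veh 3, and ran from -2.78 to -1.27 over the 7. For DPI against ND, 2 of 14 were lower, beside 3.05% of all genes, and 1 was higher, beside 6.24%. Slc2a1, the glucose transporter GLUT1, was lower, at 47.0 and 27.3 CPM in ND and 7.91, 18, 10.02 and 29.3 CPM in DPI (log2 fold change -1.19, standard error 0.53, adjusted p = 0.454), and did not pass without DPI 1, DPI 2, DPI 3 or ND 1, with values from -1.65 to -0.74. Mxi1, an antagonist of MYC, was lower by the same comparison (-1.62, standard error 0.68, adjusted p = 0.431), and did not pass without DPI 2, DPI 3 or ND 2. Car9 was at least 6.03-fold higher against the floor, with 50 and 28 of its counts in DPI 1 and DPI 2 and 2 and 4 in the others. The bound was 2.32-fold without DPI 2, and the call was lost without DPI 1, DPI 2 or either ND library. No gene of the 4 lists had an adjusted p under 0.05 in any comparison.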

How the data were processed

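Per the file headers and labels, the deposited table holds raw counts of reads per gene for 9 libraries of sorted liver macrophages, 1 column each, without normalization. The sources differ on how the authors made these counts: the methods name bowtie2 and RSEM, and the submitters' processing notes name TopHat2 and edgeR; the build was mm10. Library totals and the counting floor are given with the results. Groups follow the labels, and no library was left out. The members and gene lists were chosen with earlier results of these data known, and so lend no independent support. Whether libraries of a group differ only by mouse is not stated beyond their numbering. A figure legend of the paper gives more mice per group than there are libraries here, and how they relate is not stated.

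Counts were tested in edgeR 4.0.16 (R 4.3.3) with filterByExpr, TMM scaling and the quasi-likelihood F test over 3 groups, p adjusted by Benjamini-Hochberg over 11393 genes. Fold changes are model estimates with standard errors from the F statistic; where ND was at or under 3 counts in each library, the fold is a bound against that floor. Paralog ratios (pseudocount 0.5) had two-sided exact permutation tests, which cannot give p below 0.1 for Veh against ND, 0.0286 for DPI against Veh and 0.0667 for DPI against ND. From the lists, every gene past the threshold was named, and otherwise the 2 with the smallest p. The biological coefficient of variation was 0.65. As alternatives, scaling was by RLE, by library size or without Rn45s, and the filter was none or at least 10 counts in every library; DESeq2 1.42.0, the likelihood ratio test, fits of 2 groups, a replicate block, thinned counts, a pseudocount of 2 and leaving out each library were also tried. The edgeR fit was tried on simulated counts with less spread than these data and larger changes than those of Pfkfb3 and Ldhb. That trial therefore does not give its power here. The permutation test was tried on groups with a known answer. Positions came from GENCODE M21, promoter sequences from RefSeq (GRCm38.p6) and copies from minimap2 2.31-r1302.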

Additional observations from a re-analysis of the deposited data

Results flagged for a closer look

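Of the 10 genes and 3 paralog ratios examined in the 4 DPI libraries, 1 had a library standing apart by Dixon's test at the 95% level. Hk1 was at 34.1 CPM in DPI 1, against 15.4 to 17.1 CPM in the other DPI libraries, a gap of 0.907 of the group's range, above the critical value. DPI 1 is the deepest library, with 15585775 counts, of which 556 were on Hk1. Without it, the log2 fold change of Hk1 for DPI against Veh was 0.18 in place of 0.54, and without Veh 2 it was 1.14. Chance flags about 1 in 20 such groups, and 13 were examined.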

How the results depend on the processing

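For Veh against ND, the 7 genes with an adjusted p under 0.05 became 1 with library size scaling, 52 without a filter, 1 with at least 10 counts in every library, 312 with DESeq2, 280 with the likelihood ratio test, 0 with 2 groups only and 0 with the replicate block. With at least 10 counts, 726 in place of 1329 genes passed the study's threshold, 381 of them higher, and library size scaling gave 539 higher and 933 lower in place of 801 and 528, as the median over all genes then went from 0.03 to -0.26 (log2). Lower calls numbered 345 with at least 10 counts and 287 with the block. Members with an adjusted p under 0.05 went from 0 to 1, Pfkfb3, with DESeq2 and the likelihood ratio test. Hk2 turned to -0.23 with library size scaling and to -0.011 with the block.

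For DPI against Veh, adjusted calls went from 0 to 2 (DESeq2) and 1 (likelihood ratio test), and calls at the study's threshold from 324 to 602 without a filter and 202 with at least 10 counts (281 and 65 higher in place of 171, 321 lower without a filter in place of 153). Lower calls were 239 with 2 groups, 251 with the block and 101 with library size scaling. Same-numbered libraries did not deviate together (correlations of -0.02 to 0.08, against -0.08 to 0.06 for other pairs), so the numbers were not taken as pairs. With the block, 2 members in place of 0 passed, Hif1a (-1.03) and Pfkfb3 (-1.16), and Egln3 turned to 0.62.

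For DPI against ND, adjusted calls went from 1 to 22 without a filter, 219 with DESeq2, 186 with the likelihood ratio test, 2 with thinned counts and 0 with 2 groups or the block. With at least 10 counts, 527 in place of 1058 genes passed, 245 in place of 711 higher, and library size scaling gave 624 lower in place of 347. Members past the threshold went from 2 to 1 with library size scaling or 2 groups, both times without Pfkfb3. Egln1 turned to 0.012 with the block, under which Pfkfb3 lost its call, at 0.52, and Hif1a passed, at -1.29. The cause was not tested. Egln1 and Egln3, with at most 54 counts in a library, had no value with at least 10 counts.

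Leaving out 1 library gave 1 to 568 adjusted calls and 1027 to 2634 at the study's threshold for Veh against ND (678 to 1793 higher, 349 to 841 lower), 0 and 187 to 521 for DPI against Veh (102 to 214 higher, 65 to 307 lower) and 1 to 572 and 830 to 2626 for DPI against ND (565 to 1812 higher, 265 to 814 lower). Members past the threshold numbered 1 to 3 in both comparisons with ND. Members other than Pfkfb3 and Ldhb that passed were Egln3 without ND 1, against a lone ND library at 0, and for DPI against ND also Pfkl without DPI 2 (-1.40) and Hk1 without ND 2 (1.95, with a range of 0.27 to 1.95). Log2 fold changes for Veh against ND ran from -0.28 to 1.42 for Hk1, -0.31 to 0.78 for Hk2, -0.38 to 0.22 for Pkm, -0.42 to 0.51 for Hif1a and -0.33 to 8.03 for Egln3, the last set by the prior count. For DPI against Veh they ran from -0.74 to 0.62 for Pfkl, -0.17 to 0.47 for Ldha, -0.32 to 0.67 for Ldhb, -0.091 to 1.13 for Egln1 and -0.96 to 0.37 for Egln3. For DPI against ND they ran from -1.0 to 0.091 for Hk2, -1.40 to 0.18 for Pfkl, -0.97 to 0.047 for Hif1a and -0.58 to 7.79 for Egln3. Log2 ratios ran from -1.57 to 1.18 for Hk2 to Hk1 in Veh against ND, and in DPI against Veh from -0.54 to 0.25 for Ldha to Ldhb and -2.81 to 1.06 for Egln3 to Egln1, which ran from 1.58 to 7.32 in Veh against ND and from 0.54 to 6.28 in DPI against ND. Leaving out libraries for the genes of the 4 lists was chosen after seeing the data.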
